A study of Mus musculus with 9 samples.

Results

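The 31 genes described here encode the enzymes of the tricarboxylic acid (TCA) cycle, the pyruvate dehydrogenase complex that feeds it, the kinases and phosphatases of that complex, the enzymes that refill or drain the cycle, and ACOD1, which draws itaconate from it. They were listed by symbol and role, with no threshold on a measured value but with earlier results of these data known, and all 31 were found among the 48709 genes of the table. The libraries, 9 in all and 3 to a group, were of RNA from mouse CD8+ T cells, also called cytotoxic T cells because they kill the cells they recognise. The groups were cells given OVA peptide plus citraconate, cells given OVA peptide, and control cells without the peptide. The OVA peptide comes from chicken ovalbumin, a standard model antigen, and no group had citraconate alone. The sources used here give no strain, genotype, age, dose or time. The protocols call the cells of 8 libraries "PAS-T cells", a name they do not explain, and those of OVA plus citraconate replicate 1 OVA-stimulated T cells. They do not say whether replicates were separate cultures or animals, so p-values reflect the spread among these libraries alone, which may be technical.

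In the TCA cycle, acetyl groups that pyruvate dehydrogenase makes from pyruvate join oxaloacetate to form citrate, which is oxidised step by step back to oxaloacetate while electrons pass to the respiratory chain. Pyruvate dehydrogenase kinases switch the complex off by phosphorylation, and its phosphatases switch it on. Intermediates leave the cycle for lipid and amino acid synthesis and are replaced by anaplerotic reactions from pyruvate and glutamine, on which dividing T cells rely. Itaconate is made from cis-aconitate by ACOD1, chiefly in activated macrophages, and citraconate is an isomer of itaconate known as an ACOD1 inhibitor and as an activator of the transcription factor NRF2.

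The 3 kinase genes moved together in 2 of the comparisons below, and Me1, a known NRF2 target, has the largest decrease with citraconate among the 30 members tested. Their RefSeq promoter windows (250 bases before to 50 after the start, build GRCm38.p6) are therefore shown 5′ to 3′, with motif matches in capitals. The Pdk1 window is chr2:71872974-71873273, plus strand. The Pdk2 window is chr11:95041322-95041621, minus strand. The Pdk3 window is chrX:93832101-93832400, minus strand. The Me1 window is chr9:86695865-86696164, minus strand. Pdk1, Pdk2 and Me1 each have another start in the table, and the gene values do not say which start was used.
Pdk1 promoter window: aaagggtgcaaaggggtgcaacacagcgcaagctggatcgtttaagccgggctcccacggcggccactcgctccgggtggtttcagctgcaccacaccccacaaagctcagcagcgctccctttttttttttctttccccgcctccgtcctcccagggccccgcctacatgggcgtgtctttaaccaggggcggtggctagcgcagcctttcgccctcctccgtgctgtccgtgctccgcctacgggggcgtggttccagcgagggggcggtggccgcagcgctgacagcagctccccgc
Pdk2 promoter window: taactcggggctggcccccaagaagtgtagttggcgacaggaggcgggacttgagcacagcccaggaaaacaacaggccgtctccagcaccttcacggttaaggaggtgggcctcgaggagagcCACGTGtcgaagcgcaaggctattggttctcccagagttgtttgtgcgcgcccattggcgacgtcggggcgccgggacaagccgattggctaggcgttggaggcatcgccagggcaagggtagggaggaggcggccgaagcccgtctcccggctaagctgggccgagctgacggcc
Pdk3 promoter window: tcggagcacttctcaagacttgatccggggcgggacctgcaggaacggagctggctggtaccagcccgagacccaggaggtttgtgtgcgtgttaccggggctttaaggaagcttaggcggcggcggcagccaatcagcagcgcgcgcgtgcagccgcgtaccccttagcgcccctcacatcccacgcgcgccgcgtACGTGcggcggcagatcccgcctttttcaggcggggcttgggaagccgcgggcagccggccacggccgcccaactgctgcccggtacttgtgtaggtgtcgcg
Me1 promoter window: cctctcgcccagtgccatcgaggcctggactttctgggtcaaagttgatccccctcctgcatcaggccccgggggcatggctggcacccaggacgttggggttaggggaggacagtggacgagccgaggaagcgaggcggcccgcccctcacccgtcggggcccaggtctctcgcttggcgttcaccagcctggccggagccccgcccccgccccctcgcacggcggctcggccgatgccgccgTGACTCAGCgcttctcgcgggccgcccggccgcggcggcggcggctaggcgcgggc

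Each motif was searched on both strands, and positions count from the start, which is the base after -1. ACGTG, a form of the core bound by hypoxia-inducible factors, lies within the longer E-box CACGTG. A match to the E-box is therefore also a match to ACGTG. The Pdk2 window holds CACGTG with its first base at -126 from the start, and the Pdk3 window holds ACGTG at -53. No searched motif was found in the Pdk1 window shown. GCGTG, another form of the hypoxia-inducible factor core, was not searched, and the Pdk1 and Pdk3 windows shown hold it. The Me1 window shown holds the antioxidant response element TGACNNNGC at -6. The other Me1 window holds no TGACNNNGC but has ACGTG at -98, and the other Pdk2 window holds no searched motif. Of all 32851 windows in the table, 19.6% hold ACGTG, 7.15% CACGTG and 12.4% TGACNNNGC. Of the 38 windows of members, 6 hold CACGTG and 6 hold TGACNNNGC. Those with CACGTG are of Ogdh, Pcx, Pdk2 and Pdp2, and several of them are overlapping or neighbouring starts of Ogdh. ACGTG was in a window of 11 of the 28 members that have one, and the share by gene over all genes was not computed. The same motif was in 16 of their 38 windows, 6 of which are overlapping or neighbouring starts of Ogdh. Neither TCAAGGTCA, the site of oestrogen-related receptors, nor TGATGNAA, a C/EBP and ATF4 element, was in any of these windows, against 0.423% and 3.97% of all windows. The nuclear respiratory factor 1 site was in 2 of them, those of Dld and Sucla2, against 4.60% of all windows.

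Levels are in TPM, transcripts of the gene per 1000000 in its library. Where the 3 libraries of a group are not listed one by one, their mean ± SD is printed (n = 3). Reads assigned to genes, worked back from the table, numbered 14754470 to 17384330 per library. Pairs of libraries that included OVA replicate 2 or OVA plus citraconate replicate 2 differed most within their groups. Cd8a stood at 280.4 to 348 TPM with OVA plus citraconate, 103 to 177 TPM with OVA and 211 to 224 TPM in control, while Cd4 was at most 3.11 TPM in any library. All 12 T cell markers were present, their summed level being 7620.2 to 8009 TPM with OVA plus citraconate, 4355 to 5564 TPM with OVA and 8879.99 to 9338 TPM in control. The 7 natural killer markers summed to 164 to 256 TPM with OVA plus citraconate, 778 to 1199 TPM with OVA and 6.43 to 8.25 TPM in control. The 12 myeloid markers found summed to 19.8 to 29.1 TPM with OVA plus citraconate, 27.2 to 32.4 TPM with OVA and 14.8 to 18.7 TPM in control, with Csf3r and Marco at 0 in every library. All 7 natural killer markers rose with OVA and fell when citraconate was added, while 11 of 12 T cell markers fell with OVA and rose when citraconate was added. The 8 stromal and epithelial markers summed to 64.7 to 84.6 TPM with OVA plus citraconate, 264 to 387 TPM with OVA and 44.4 to 47.95 TPM in control, most of it Pecam1, which leukocytes also carry, with Col3a1 and Krt8 at 0 in every library. The 8 B cell markers summed to 57.1 to 89.3 TPM with OVA plus citraconate, 58.9 to 88.9 TPM with OVA and 225 to 259 TPM in control. Within that sum, Ighm and Igkc moved in opposite directions with OVA and again when citraconate was added. Ighm averaged 74.4 TPM with OVA plus citraconate, 28.4 TPM with OVA and 214 TPM in control, and Igkc averaged 0.727, 42.1 and 16.9 TPM in the same order. The 4 CD4 T cell markers summed to 18.3 to 19.9 TPM with OVA plus citraconate, 19.6 to 21.4 TPM with OVA and 53.9 to 60.8 TPM in control, and the 8 erythroid and platelet markers to 10.9 to 13.5 TPM with OVA plus citraconate, 3.62 to 5.39 TPM with OVA and 7.03 to 9.28 TPM in control. These shifts run beside every comparison below, and their part in the results was not tested. In bulk RNA, fewer cells of a type and less RNA per cell cannot be told apart.

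OVA against control shows the response to the peptide. The 11971 genes with a group mean of at least 1 TPM were tested with limma, and those below an adjusted p of 0.05 are said to have risen or fallen. That filter kept 30 members and left out Acod1. With OVA, 14 of the 30 members rose and 10 fell, beside 32.1% of all genes tested that rose and 39.8% that fell, or 71.9% in either direction. The groups did not overlap for 26 of the 30 members, against 75% of all genes. The median log2 change was 0.13 for the members and -0.08 for all genes. By role, all 5 subunit genes of pyruvate dehydrogenase rose, all 3 kinase genes fell, and the aconitase and isocitrate dehydrogenase genes included members of both directions. The calls of Pdhx, Pdk2, Pdk3 and Idh3g in these counts each rested on single libraries, which are named with their values below. With libraries scaled by the median of ratios, which sets the typical gene equal between libraries, Fh1, Mdh1, Sucla2 and Acly were also called higher and Idh3g was no longer called.

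OVA plus citraconate against OVA shows what changed when citraconate was added. Of the 30 members, 7 rose and 6 fell, beside 37.8% and 21.2% of all genes tested, or 59% in either direction. The groups did not overlap for 16 members, against 66.1% of all genes. The counts of calls depend on scaling, since the median of all genes shifted by a log2 of 0.12. With the median of ratios, 5 members rose and 15 fell, while all genes split into 3470 that rose and 3598 that fell. The members gained on the lower side were Pdha1, Dld, Cs, Idh3a, Dlst, Suclg1, Sucla2, Mdh1 and Glud1, and those lost on the higher side were Pdp1 and Idh3b. For OVA plus citraconate against OVA, a relative log2 is the log2 change minus the median of all genes, while its p is that of the unshifted test. The 11 members called in the same direction under the main settings and all 19 alternatives were Pdk1, Pdk2, Pdk3, Idh2 and Pcx, which rose, and Dlat, Aco1, Suclg2, Mdh2, Me1 and Acly, which fell.

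OVA plus citraconate was also compared with control. There 13 members were higher and 7 lower, beside 33.1% and 26.3% of all genes, or 59.4% in either direction, with a median log2 change of 0.16 for the members and 0.04 for all genes. The groups did not overlap for 22 members, against 67.4% of all genes. The 3 comparisons share libraries, so a member's changes in them are not independent of each other. Summed over the 31 members, transcripts numbered 2625 ± 72.9 TPM with OVA plus citraconate, 2754 ± 60.5 TPM with OVA and 2414 ± 58.04 TPM in control (SD, n = 3).

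**Figure D1:**
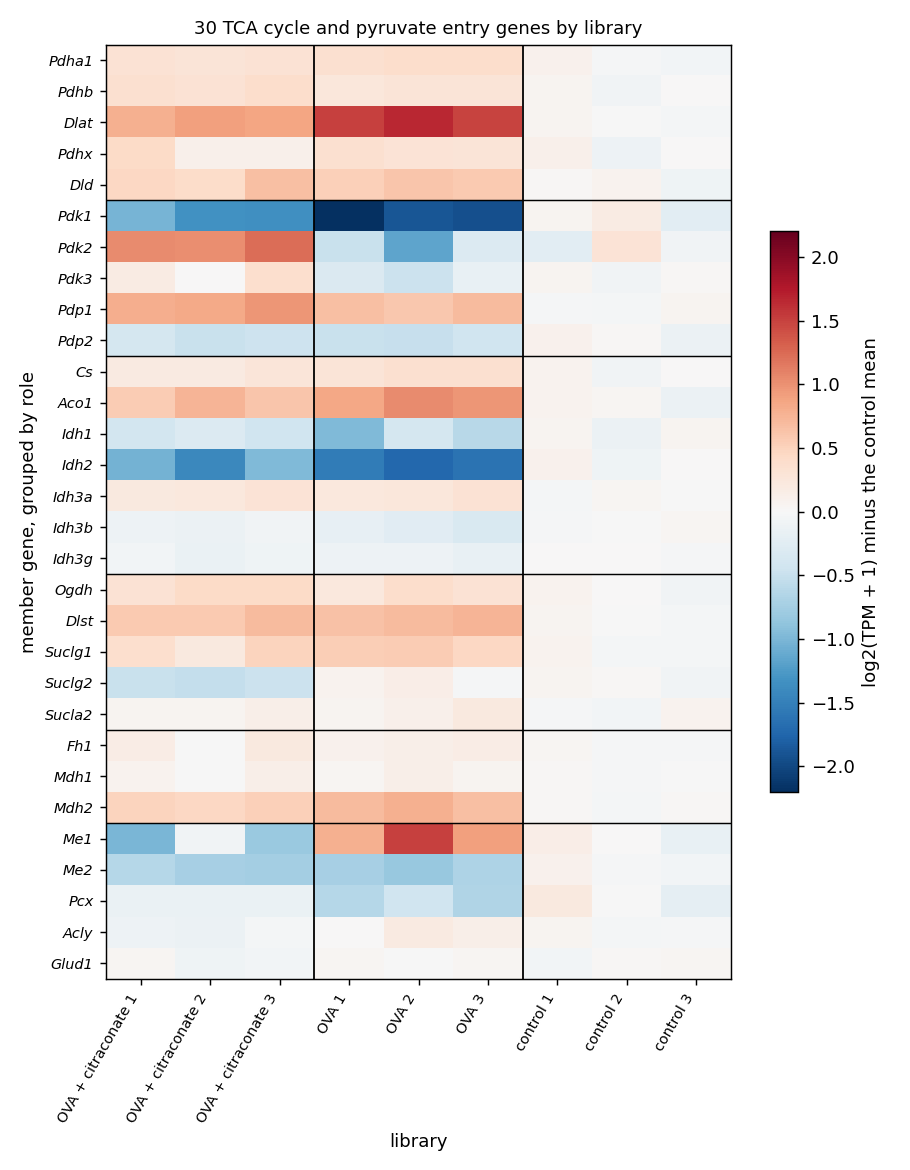
Each cell is the log2(TPM + 1) of 1 member in 1 library minus the mean of the 3 control libraries, with libraries along the bottom and members grouped by role down the side. Dlat is red in all OVA libraries and paler with citraconate, Pdk1 and Idh2 are blue in both treated groups, and Pdk2, Suclg2 and Me1 differ in sign or depth between the treated groups.

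Pyruvate dehydrogenase is built from a decarboxylase (Pdha1 and Pdhb), the acetyltransferase core (Dlat), the binding protein that anchors DLD to that core (Pdhx) and dihydrolipoamide dehydrogenase (Dld). Dlat changed most. It stood at 41.9, 45.8 and 44.5 TPM with OVA plus citraconate, 70.1, 78.4 and 68.8 TPM with OVA, and 25.1, 23.8 and 23.1 TPM in control. The 3 groups did not overlap, and the citraconate libraries lay between the others. Dlat rose with OVA to 3.02 times its control mean (log2 1.55, SE 0.066, adjusted p = 3.76e-08) and fell when citraconate was added (relative log2 -0.83, SE 0.066, adjusted p = 2.45e-05), remaining above control (log2 0.85, SE 0.066, adjusted p = 3.12e-06).

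Dld, which is shared with the 2-oxoglutarate and branched-chain dehydrogenases, stood at 110.4, 107 and 128 TPM with OVA plus citraconate, 115, 123 and 120.4 TPM with OVA, and 81.2, 84.8 and 74.8 TPM in control. It rose with OVA (log2 0.57, SE 0.074, adjusted p = 5.89e-05), and the citraconate libraries overlapped those of OVA. The decarboxylase genes changed less. Pdha1 averaged 113 ± 1.74 TPM with OVA plus citraconate, 119 ± 1.47 TPM with OVA and 91.02 ± 4.93 TPM in control, and Pdhb averaged 144 ± 3.69 TPM with OVA plus citraconate, 136 ± 1.86 TPM with OVA and 112 ± 5.52 TPM in control. Both rose with OVA (log2 0.38 and 0.27) and neither was called between the treated groups, where the 95% intervals of the unshifted change were -0.18 to 0.04 and -0.03 to 0.19. Pdhx, the least abundant subunit gene, was called higher with OVA than in control (log2 0.31, SE 0.11, adjusted p = 0.0226). That call was lost without OVA replicate 1 (adjusted p = 0.0687) or control replicate 2 (0.0877).

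A ratio of TPM within a library does not depend on scaling between libraries. Gene pairs for such ratios, here and below, were picked with the values in view. The ratio of Dlat to Pdha1 was 0.392 ± 0.0225 with OVA plus citraconate, 0.611 ± 0.0422 with OVA and 0.264 ± 0.00374 in control, and the groups did not overlap. Relative to Pdha1 in the same library, Dlat was thus highest with OVA and lowest in control. The ratio of Pdhb to Pdha1 was 1.28 ± 0.0219 with OVA plus citraconate, 1.15 ± 0.00152 with OVA and 1.24 ± 0.0569 in control, and all 3 OVA libraries lay below the other 6.

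The 3 pyruvate dehydrogenase kinase genes rose when citraconate was added. Pdk1, known for its induction by hypoxia-inducible factor, stood at 33.6, 27.0 and 26.7 TPM with OVA plus citraconate, 13.1, 18.02 and 17.3 TPM with OVA, and 72.1, 78.7 and 58.8 TPM in control. Control libraries were highest and OVA libraries lowest, with no overlap. Pdk1 fell with OVA to 0.231 of its control mean (log2 -2.05, SE 0.14, adjusted p = 7.48e-07). It rose when citraconate was added (relative log2 0.69, SE 0.14, adjusted p = 0.000761) and was still below control (log2 -1.23, SE 0.14, adjusted p = 4.54e-05).

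Pdk2, the most widely expressed kinase of the family, stood at 10.2, 10.1 and 11.8 TPM with OVA plus citraconate, 2.86, 1.43 and 3.43 TPM with OVA, and 3.66, 5.73 and 4.15 TPM in control. All citraconate libraries lay above the other 6. Pdk2 rose to 4.16 times its OVA mean (relative log2 1.63, SE 0.21, adjusted p = 9.25e-05) and was also above control (log2 1.10, SE 0.21, adjusted p = 0.00143). Its OVA values rest on 29 to 75 reads per library, and its fall with OVA relative to control (log2 -0.65, SE 0.21, adjusted p = 0.0190) was lost without control replicate 2 (log2 -0.50, adjusted p = 0.0787).

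Pdk3, the kinase least sensitive to inhibition by pyruvate, stood at 57.5, 51.01 and 65.6 TPM with OVA plus citraconate, 40.2, 36.1 and 45.2 TPM with OVA, and 52.8, 47.7 and 51.6 TPM in control. Citraconate libraries lay above all OVA libraries and overlapped those of control. Pdk3 rose when citraconate was added (relative log2 0.38, SE 0.10, adjusted p = 0.00176) and was lower with OVA than in control (log2 -0.32, SE 0.10, adjusted p = 0.0158). The second call was lost without OVA replicate 2 (adjusted p = 0.0533), without control replicate 1 (0.0539) or with granzymes left out (0.0716). Against control, Pdk3 with citraconate was not called (log2 0.19, adjusted p = 0.141), although it was called without OVA plus citraconate replicate 2 (0.0424).

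The makeup of the kinase transcripts differed between groups. The ratio of Pdk1 to Pdk3 was 0.507 ± 0.0911 with OVA plus citraconate, 0.402 ± 0.0880 with OVA and 1.38 ± 0.255 in control, and citraconate and OVA overlapped. The ratio of Pdk1 to Pdk2 was 2.74 ± 0.522 with OVA plus citraconate, 7.41 ± 4.49 with OVA and 15.9 ± 3.33 in control, and the 3 groups did not overlap. On the TPM scale Pdk1 was the most abundant kinase message in every control library, and Pdk3 was the most abundant in all 6 treated libraries.

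Among the phosphatase genes, Pdp1, the calcium-stimulated phosphatase, stood at 13.9, 14.4 and 15.9 TPM with OVA plus citraconate, 12.6, 11.9 and 12.9 TPM with OVA, and 7.51, 7.35 and 8.004 TPM in control. It rose with OVA (log2 0.64, SE 0.079, adjusted p = 3.85e-05) and was higher with citraconate than in control (log2 0.87, SE 0.079, adjusted p = 9.43e-06). Between the treated groups the call (relative log2 0.10, adjusted p = 0.0345) was lost under 9 alternatives, among them the median of ratios (adjusted p = 0.316) and leaving out OVA replicate 1 (0.0712), OVA replicate 2 (0.101) and replicates 2 (0.0527) and 3 (0.131) of OVA plus citraconate, each in turn. Pdp2, the other catalytic phosphatase, averaged 6.54 ± 0.257 TPM with OVA plus citraconate, 6.34 ± 0.187 TPM with OVA and 9.25 ± 0.802 TPM in control. It fell with OVA (log2 -0.48, SE 0.089, adjusted p = 0.000677), and the treated groups overlapped.

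**Figure D2:**
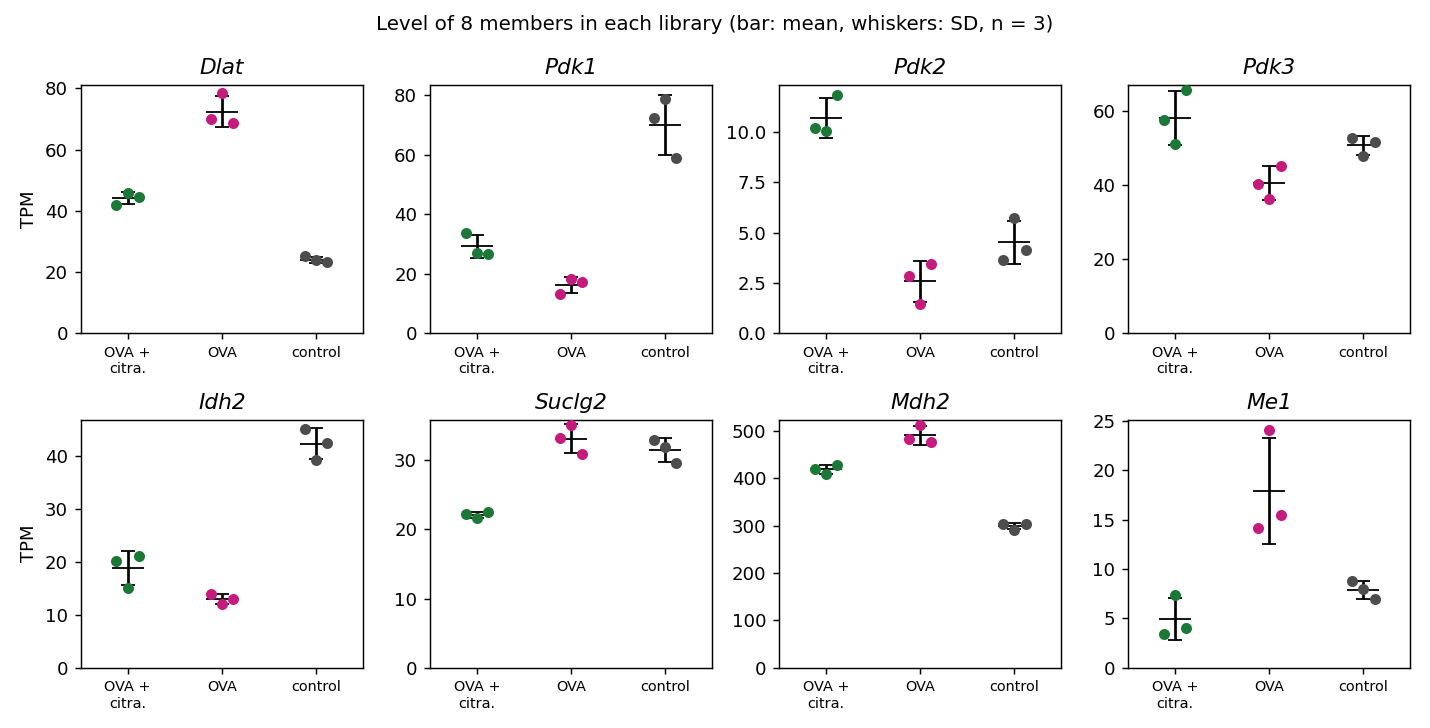
TPM of 8 members, 1 panel each, with a point for each library, a bar for the mean and whiskers for the SD (n = 3 per group). Dlat and Mdh2 are highest with OVA and lowest in control, Pdk1 and Idh2 are highest in control, Pdk2 is highest and Suclg2 lowest with OVA plus citraconate, and Me1 is highest with OVA.

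The steps from citrate to 2-oxoglutarate start with citrate synthase (Cs), which averaged 267 ± 7.47 TPM with OVA plus citraconate, 289 ± 8.49 TPM with OVA and 230.3 ± 12.3 TPM in control. Cs rose with OVA (log2 0.33, SE 0.051, adjusted p = 0.000205). Between the treated groups it was not called (relative log2 -0.24, adjusted p = 0.0817), but it was called lower with the median of ratios (0.00179). Aco1 encodes the cytosolic aconitase, which becomes the iron-responsive RNA-binding protein IRP1 when it loses its iron-sulphur cluster. Aco1 stood at 22.4, 25.7 and 23.2 TPM with OVA plus citraconate, 27.7, 31.6 and 30.1 TPM with OVA, and 15.8, 15.5 and 13.6 TPM in control. The 3 groups did not overlap. It rose with OVA to 1.99 times its control mean (log2 0.95, SE 0.084, adjusted p = 3.79e-06) and fell when citraconate was added (relative log2 -0.44, SE 0.084, adjusted p = 0.00886).

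The NADP-dependent isocitrate dehydrogenases fell with OVA. Idh2, the mitochondrial enzyme, stood at 20.1, 15.1 and 21.1 TPM with OVA plus citraconate, 13.97, 12.1 and 13.1 TPM with OVA, and 45.1, 39.4 and 42.5 TPM in control. Control libraries lay above all 6 treated libraries. Idh2 fell with OVA to 0.308 of its control mean (log2 -1.62, SE 0.12, adjusted p = 9.14e-07), rose when citraconate was added (relative log2 0.36, SE 0.12, adjusted p = 0.00509) and was still below control (log2 -1.14, SE 0.12, adjusted p = 1.93e-05). Idh1, its cytosolic counterpart, stood at 9.19, 9.92 and 8.98 TPM with OVA plus citraconate, 5.86, 9.35 and 7.77 TPM with OVA, and 13.1, 11.4 and 13.02 TPM in control, and the treated groups overlapped. It fell with OVA (log2 -0.66, SE 0.14, adjusted p = 0.00150). Between the treated groups it was not called (relative log2 0.15, adjusted p = 0.105) unless OVA replicate 2 was left out (0.0158). With citraconate it was below control (log2 -0.38, adjusted p = 0.0355), a call lost under 7 alternatives, among them leaving out control replicate 1 (0.0996) or 3 (0.0981), or any citraconate replicate (0.0829, 0.0501 and 0.0951 for replicates 1, 2 and 3).

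The NAD-dependent enzyme of the cycle is assembled from a catalytic subunit (Idh3a) and regulatory subunits (Idh3b and Idh3g), whose messages moved apart with OVA. Idh3a averaged 98.7 ± 3.12 TPM with OVA plus citraconate, 100.2 ± 3.37 TPM with OVA and 83.1 ± 2.13 TPM in control and rose with OVA (log2 0.27, SE 0.048, adjusted p = 0.000596). Idh3b averaged 114 ± 2.02 TPM with OVA plus citraconate, 103 ± 5.10 TPM with OVA and 123 ± 2.81 TPM in control and fell with OVA (log2 -0.26, SE 0.049, adjusted p = 0.000861). The ratio of Idh3b to Idh3a was 1.15 ± 0.0274 with OVA plus citraconate, 1.02 ± 0.0832 with OVA and 1.48 ± 0.0489 in control, with every treated library below every control library. Idh3g averaged 109 ± 3.42 TPM with OVA plus citraconate, 106 ± 2.12 TPM with OVA and 116 ± 1.76 TPM in control, and its ratio to Idh3a was 1.10 ± 0.0558 with OVA plus citraconate, 1.06 ± 0.0558 with OVA and 1.40 ± 0.0450 in control.

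For Idh3g the lower level with OVA (log2 -0.13, adjusted p = 0.0242) was not called with the median of ratios (0.477), nor without control replicate 1 (0.0662), control replicate 2 (0.0685) or OVA replicate 3 (0.0736). For Idh3b the call between the treated groups (adjusted p = 0.0227) went with a relative log2 of only 0.03. It was lost with the median of ratios (0.826), without replicate 1 (0.0560) or replicate 3 (0.0708) of OVA plus citraconate, and without OVA replicate 3 (0.0794).

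**Figure D3:**
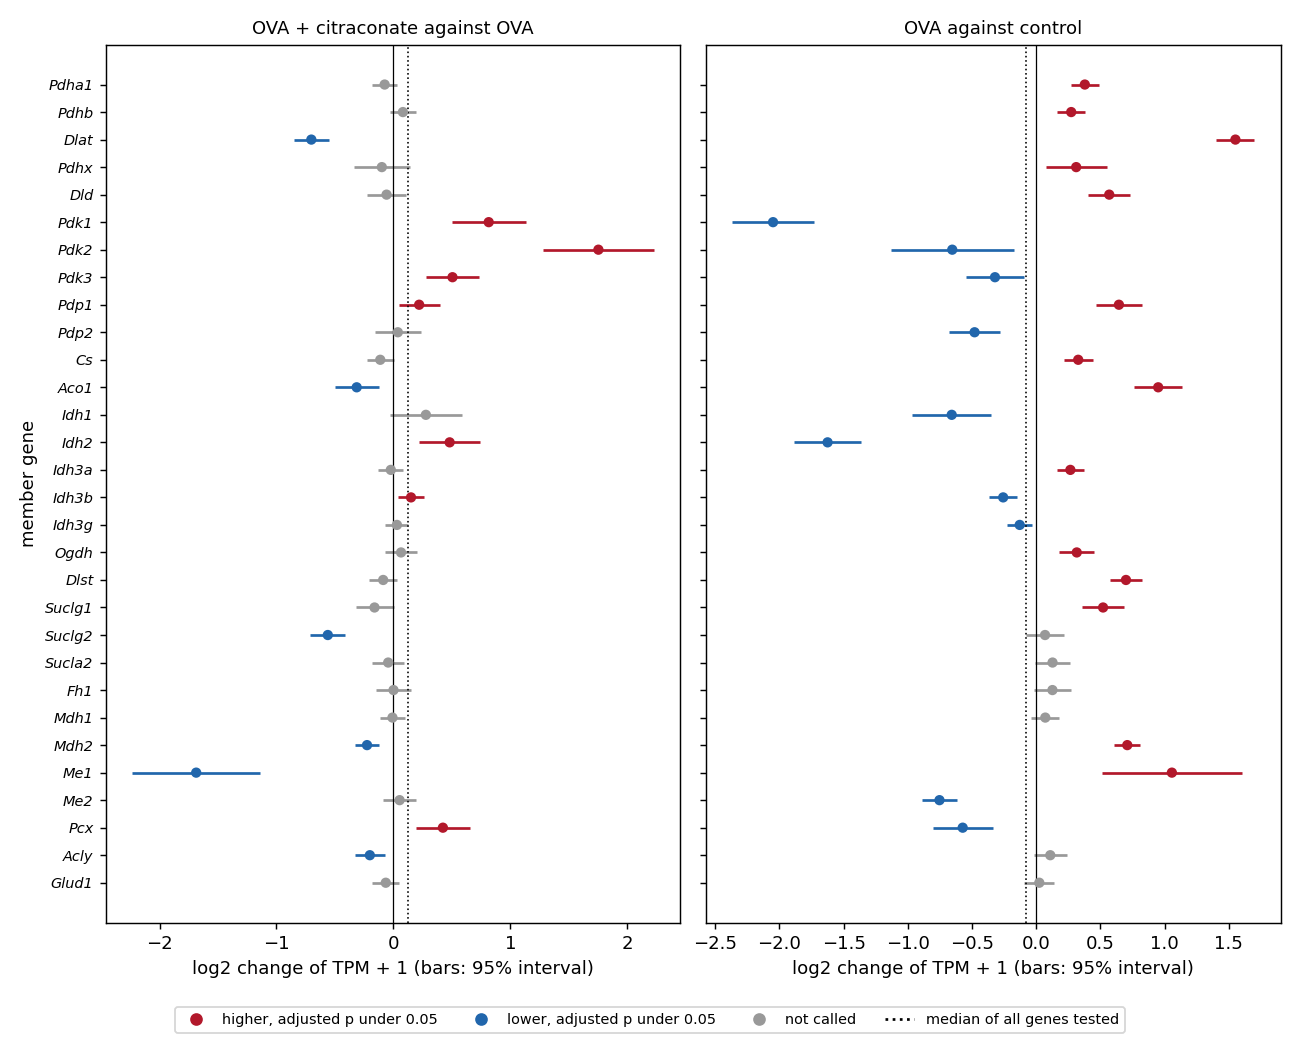
Log2 change of TPM + 1 for the 30 members tested, with 95% intervals, for OVA plus citraconate against OVA (left) and OVA against control (right); red and blue mark members called higher and lower, grey those not called, and the dotted line the median of all genes tested (0.12 on the left, -0.08 on the right). In the left panel the 3 kinases lie right of the dotted line and Dlat, Suclg2 and Me1 lie farthest left of it, and in the right panel the 5 subunits of pyruvate dehydrogenase lie right of 0.

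The 2-oxoglutarate dehydrogenase complex oxidises 2-oxoglutarate to succinyl-CoA. Its core succinyltransferase gene, Dlst, stood at 102, 101 and 111 TPM with OVA plus citraconate, 107, 111 and 115 TPM with OVA, and 71.004, 67.3 and 65.9 TPM in control. Dlst rose with OVA (log2 0.70, SE 0.055, adjusted p = 1.64e-06), and the treated groups overlapped. Ogdh, which encodes the decarboxylase, averaged 120.4 ± 5.08 TPM with OVA plus citraconate, 115 ± 6.31 TPM with OVA and 92.2 ± 5.12 TPM in control and rose by less (log2 0.32, SE 0.061, adjusted p = 0.000885). The ratio of Dlst to Ogdh was 0.870 ± 0.0417 with OVA plus citraconate, 0.968 ± 0.0434 with OVA and 0.739 ± 0.0166 in control, higher in every OVA library than in any other library. In both 2-oxo acid dehydrogenases the transferase core thus had the larger fold rise with OVA among its own subunits, by the values given, and that difference between subunits was not tested.

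Succinyl-CoA synthetase pairs a common alpha subunit (Suclg1) with a beta subunit that sets the nucleotide, GDP for Suclg2 and ADP for Sucla2. Suclg1 stood at 50.5, 45.2 and 54.4 TPM with OVA plus citraconate, 56.8, 57.7 and 53.4 TPM with OVA, and 40.8, 37.7 and 37.5 TPM in control and rose with OVA (log2 0.52, SE 0.073, adjusted p = 9.95e-05). Suclg2 stood at 22.2, 21.6 and 22.4 TPM with OVA plus citraconate, 33.2, 35.1 and 30.9 TPM with OVA, and 32.9, 31.9 and 29.6 TPM in control. The citraconate libraries lay below the other 6, which overlapped among themselves. Suclg2 fell when citraconate was added (relative log2 -0.68, SE 0.067, adjusted p = 8.16e-05) and was below control as well (log2 -0.49, SE 0.067, adjusted p = 0.000141). It did not pass the test between OVA and control (log2 0.07, adjusted p = 0.369), but was called higher with OVA when granzymes were left out (log2 0.18, adjusted p = 0.0365).

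Sucla2 averaged 42.4 ± 1.32 TPM with OVA plus citraconate, 43.8 ± 2.44 TPM with OVA and 40.03 ± 2.08 TPM in control and was not called in the 3 comparisons, with a 95% interval of -0.05 to 0.22 for OVA plus citraconate against control. The ratio of Sucla2 to Suclg2 was 1.92 ± 0.0378 with OVA plus citraconate, 1.33 ± 0.151 with OVA and 1.28 ± 0.135 in control. Every citraconate library lay above every other library in this ratio, while OVA and control overlapped. With the median of ratios Sucla2 was called higher with OVA than in control (adjusted p = 0.00914) and lower with citraconate than with OVA (0.0308). It was also called higher with OVA without control replicate 3 (0.0443).

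From fumarate to oxaloacetate, the mitochondrial malate dehydrogenase gene Mdh2 was the most abundant of the 31 members in every library, at 419.9, 409 and 428 TPM with OVA plus citraconate, 482, 512 and 475 TPM with OVA, and 303, 291 and 303 TPM in control. The 3 groups did not overlap. Mdh2 rose with OVA (log2 0.71, SE 0.045, adjusted p = 4.38e-07), fell when citraconate was added (relative log2 -0.35, SE 0.045, adjusted p = 0.00180) and stayed above control (log2 0.48, SE 0.045, adjusted p = 1.10e-05). Mdh1, the cytosolic enzyme of the malate-aspartate shuttle, averaged 148 ± 6.58 TPM with OVA plus citraconate, 148 ± 4.81 TPM with OVA and 141 ± 2.56 TPM in control and was not called in any comparison, with an interval of -0.04 to 0.18 for OVA against control. The ratio of Mdh2 to Mdh1 was 2.84 ± 0.0622 with OVA plus citraconate, 3.30 ± 0.0510 with OVA and 2.12 ± 0.0316 in control, with no overlap. Fh1, which encodes fumarate hydratase, averaged 46.03 ± 3.79 TPM with OVA plus citraconate, 45.9 ± 1.29 TPM with OVA and 41.9 ± 1.13 TPM in control. It was not called, with intervals of -0.15 to 0.15 between the treated groups and -0.02 to 0.27 for OVA against control, but was called higher than control without OVA plus citraconate replicate 2 (0.0185).

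**Figure D4:**
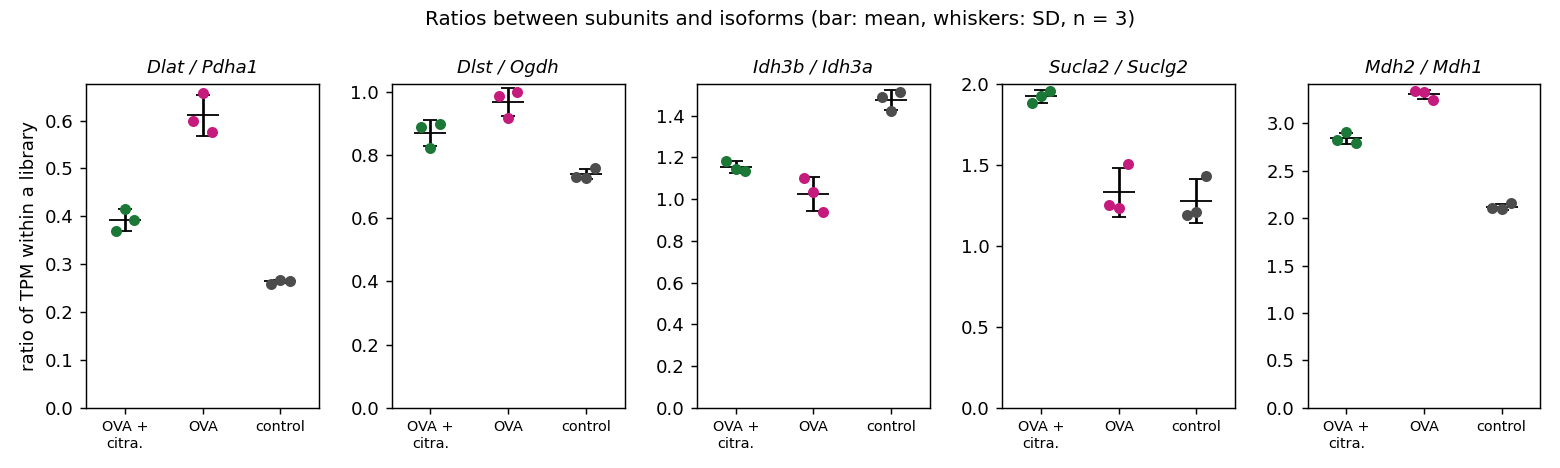
Ratio of the TPM of 2 members within each library for 5 pairs, with a point for each library, a bar for the mean and whiskers for the SD (n = 3 per group). Dlat to Pdha1 and Mdh2 to Mdh1 are highest with OVA and lowest in control, Idh3b to Idh3a is highest in control, and Sucla2 to Suclg2 is highest with OVA plus citraconate.

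Among the enzymes that refill or drain the cycle, Me1 changed most. It encodes the cytosolic malic enzyme, which makes NADPH and pyruvate from malate, and stood at 3.42, 7.40 and 4.06 TPM with OVA plus citraconate, 14.2, 24.1 and 15.5 TPM with OVA, and 8.80, 7.93 and 6.94 TPM in control. OVA libraries lay above all others, and replicate 2 was the highest of both treated groups. Me1 rose with OVA (log2 1.06, SE 0.25, adjusted p = 0.00291) and fell when citraconate was added (relative log2 -1.81, SE 0.25, adjusted p = 0.000254), to 0.277 of its OVA mean. It was called below control as well (log2 -0.63, adjusted p = 0.0479), though those groups overlapped and the call was lost under 11 alternatives, among them leaving out any 1 control replicate (0.132, 0.101 and 0.0663 for replicates 1, 2 and 3), OVA plus citraconate replicate 1 (0.169) or 3 (0.138), or OVA replicate 1 (0.0513) or 3 (0.0522).

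Me2, the mitochondrial malic enzyme, stood at 121, 112 and 111 TPM with OVA plus citraconate, 112, 104 and 116 TPM with OVA, and 199.5, 182 and 179 TPM in control. It fell with OVA (log2 -0.75, SE 0.062, adjusted p = 2.24e-06), was also below control with citraconate (log2 -0.70, SE 0.062, adjusted p = 7.44e-06), and was not called between the treated groups, whose libraries overlapped (95% interval -0.08 to 0.19). The ratio of Me2 to Me1 was 25.9 ± 10.1 with OVA plus citraconate, 6.57 ± 1.96 with OVA and 23.8 ± 1.72 in control. OVA libraries had the lowest ratios, and citraconate and control overlapped.

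Pcx, which encodes pyruvate carboxylase, the enzyme that makes oxaloacetate from pyruvate, stood at 17.7, 17.7 and 17.6 TPM with OVA plus citraconate, 12.4, 14.2 and 12.1 TPM with OVA, and 22.97, 19.6 and 16.96 TPM in control. OVA libraries lay below all others. Pcx fell with OVA (log2 -0.57, SE 0.11, adjusted p = 0.000656) and rose when citraconate was added (relative log2 0.30, SE 0.11, adjusted p = 0.00591), and citraconate and control overlapped (log2 -0.15, adjusted p = 0.250). Acly, the ATP-citrate lyase that turns exported citrate into cytosolic acetyl-CoA, averaged 181 ± 5.20 TPM with OVA plus citraconate, 208 ± 13.9 TPM with OVA and 193 ± 7.67 TPM in control. Acly fell when citraconate was added (relative log2 -0.32, SE 0.057, adjusted p = 0.0120). With OVA against control it did not pass (log2 0.11, adjusted p = 0.108), but it passed without OVA replicate 1 (0.0298) and with the median of ratios (0.00794). Glud1, the glutamate dehydrogenase that feeds 2-oxoglutarate, averaged 170.1 ± 9.04 TPM with OVA plus citraconate, 178 ± 3.85 TPM with OVA and 175 ± 7.09 TPM in control. It was not called, with an interval of -0.09 to 0.14 for OVA against control. With granzymes left out it was called higher with OVA than in control (adjusted p = 0.0277) and lower with citraconate than with OVA (0.0357).

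Acod1, which encodes the enzyme that makes itaconate, had 1, 1 and 7 reads in OVA replicates 1, 2 and 3 (0.0584, 0.0595 and 0.386 TPM) and none in the OVA plus citraconate and control libraries. A count of 0 allows up to 3 reads, which is 0.177 to 0.193 TPM in the citraconate libraries and 0.165 to 0.198 TPM in control, counting error only. OVA replicates 1 and 2 lay below those limits, so that no difference was detectable for them at this depth, and replicate 3 lay above. Among markers of macrophages, in which Acod1 is best known, Adgre1 and Lyz2 were at 0 in every OVA library, whereas others were detected. In control, Lyz2 had 1, 3 and 0 reads. Csf1r, the receptor of a macrophage growth factor, had 0, 2 and 0 reads with OVA plus citraconate, 5, 2 and 13 reads with OVA, and 1, 1 and 0 reads in control. Cd68, a lysosomal protein, stood at 14.2, 17.7 and 10.7 TPM with OVA plus citraconate, 12.1, 14.03 and 12.2 TPM with OVA, and 8.11, 6.36 and 4.02 TPM in control. Cd14 stood at 3.18, 4.18 and 3.34 TPM with OVA plus citraconate, 7.99, 9.73 and 5.88 TPM with OVA, and 0, 0.623 and 0.459 TPM in control. Other myeloid markers went the other way with OVA. Mpeg1 had 0, 0 and 0 reads with OVA plus citraconate, 0, 0 and 1 with OVA, and 4, 1 and 7 in control. Itgax averaged 4.01 TPM with OVA plus citraconate, 5.71 TPM with OVA and 6.96 TPM in control. The part of such cells was not tested.

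Other genes of the pathway were read from a list of 40, all found in the table and 37 tested. With OVA, 17 rose and 9 fell, beside 32.1% and 39.8% of all genes tested. With citraconate added to OVA, 14 rose and 8 fell, beside 37.8% and 21.2%. With OVA plus citraconate against control, 16 were higher and 7 lower, beside 33.1% and 26.3%. Changes of the succinate dehydrogenase genes were small. The flavoprotein subunit gene Sdha averaged 190.1 ± 10.1 TPM with OVA plus citraconate, 172 ± 7.27 TPM with OVA and 169 ± 4.08 TPM in control, and the iron-sulphur subunit gene Sdhb averaged 109 ± 1.41 TPM with OVA plus citraconate, 119 ± 8.53 TPM with OVA and 96.2 ± 3.87 TPM in control and rose with OVA (log2 0.30, SE 0.058, adjusted p = 0.000831). Sdhc averaged 55.6 ± 0.689 TPM with OVA plus citraconate, 57.2 ± 1.57 TPM with OVA and 50.2 ± 3.28 TPM in control and rose with OVA (log2 0.19, SE 0.057, adjusted p = 0.0131). Sdhd averaged 214 ± 5.46 TPM with OVA plus citraconate, 192 ± 8.98 TPM with OVA and 206 ± 4.65 TPM in control. Of these 4 genes, Sdha and Sdhd were called higher with citraconate than with OVA (relative log2 0.02 and 0.03), calls that held in 9 and 12 of 19 alternatives. Both were lost with the median of ratios (adjusted p = 0.853 and 0.776). The Sdha call was also lost without replicate 3 of OVA plus citraconate (0.139), OVA replicate 1 (0.128), OVA replicate 2 (0.0736) or control replicate 2 (0.0553), and the Sdhd call without replicate 1 of OVA plus citraconate (0.0622), OVA replicate 2 (0.0561) or OVA replicate 3 (0.0539). Sdhb and Sdhc were called lower with citraconate than with OVA under the median of ratios (0.00742 and 0.0234).

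Glul, which makes glutamine from glutamate, averaged 46.7 ± 2.66 TPM with OVA plus citraconate, 31.03 ± 2.27 TPM with OVA and 85.9 ± 0.572 TPM in control. Glul fell with OVA (log2 -1.44, SE 0.065, adjusted p = 5.20e-08) and rose when citraconate was added (relative log2 0.45, SE 0.065, adjusted p = 6.24e-05). Gpt2, the mitochondrial alanine transaminase that yields 2-oxoglutarate, averaged 6.34 ± 1.02 TPM with OVA plus citraconate, 17.1 ± 3.16 TPM with OVA and 4.02 ± 0.374 TPM in control, and Got1, the cytosolic aspartate transaminase, averaged 51.3 ± 1.64 TPM with OVA plus citraconate, 70.3 ± 5.80 TPM with OVA and 45.8 ± 0.804 TPM in control. Both rose with OVA (log2 1.84 and 0.60) and fell when citraconate was added (relative log2 -1.43 and -0.57, adjusted p = 4.98e-05 and 0.000220).

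Pck2, the mitochondrial enzyme that draws phosphoenolpyruvate from oxaloacetate, stood at 26.4, 28.3 and 26.4 TPM with OVA plus citraconate, 72.5, 79.1 and 70.5 TPM with OVA, and 31.1, 29.04 and 27.9 TPM in control. It rose with OVA (log2 1.31, SE 0.066, adjusted p = 1.02e-07) and fell when citraconate was added (relative log2 -1.54, SE 0.066, adjusted p = 1.93e-06), and citraconate and control overlapped. Acss1, which makes mitochondrial acetyl-CoA from acetate, stood at 33.5, 19.4 and 29.4 TPM with OVA plus citraconate, 4.71, 2.08 and 6.90 TPM with OVA, and 30.6, 25.5 and 30.1 TPM in control. OVA libraries lay below all others. Acss1 fell with OVA (log2 -2.52, SE 0.30, adjusted p = 3.27e-05) and rose when citraconate was added (relative log2 2.30, SE 0.30, adjusted p = 0.000103). Clybl encodes the mitochondrial citramalyl-CoA lyase, which acts in the breakdown of itaconate. Clybl stood at 37.6, 24.2 and 26.7 TPM with OVA plus citraconate, 11.6, 8.57 and 11.8 TPM with OVA, and 77.3, 87.9 and 73.5 TPM in control, with no overlap among the groups. It fell with OVA to 0.134 of its control mean (log2 -2.80, SE 0.16, adjusted p = 2.41e-07), rose when citraconate was added (relative log2 1.25, SE 0.16, adjusted p = 7.55e-05) and was still below control (log2 -1.42, SE 0.16, adjusted p = 4.19e-05).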

How the data were processed

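RNA from 9 libraries of mouse CD8+ T cells was measured in 3 groups of 3, assigned by the titles in the labels. The authors deposited 1 table of TPM, with genes named by symbol. The table is named for FPKM, yet every column adds up to 1000000, as TPM does. Trim Galore 0.5.0, Salmon and the GRCm39 genome are named in the submitters' processing notes, and the sources used here do not name the annotation. Where a gene has a near-identical copy, how its reads were divided is not known.

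On a log2(TPM + 1) scale, genes with a group mean of at least 1 TPM, 11971 in all, were fitted over all 9 libraries with limma 3.58.1 in R 4.3.3 (lmFit, contrasts.fit, eBayes with a trend), without further scaling. P-values are two-sided and adjusted by Benjamini-Hochberg over the genes tested in each comparison, with 0.05 as the threshold for a call. The log2 scale with a pseudocount of 1 understates changes of low genes. Whole reads were worked back for all 16734 genes above 0 in at least 2 libraries (tolerance 0.0001 reads or 3e-08 of the count). Both steps were tested on simulated data. The 19 alternatives were 10 settings and leaving out each of the 9 libraries.

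Members and lists were chosen with earlier results of these data known. Values in every library are given for members with a log2 change of at least 0.5 past the test in OVA against control or OVA plus citraconate against OVA and at least 5 TPM in the higher group, and for Acod1. Of the other pathway genes, the Sdh genes and the 6 with the smallest adjusted p for citraconate are named, and 2 more that the rule covers are not reported here. Mmut was matched under its older symbol Mut. Promoter windows are from RefSeq (GRCm38.p6), and 28 of 31 members matched.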

Additional observations from a re-analysis of the deposited data

How the results depend on the processing

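Of the 30 members tested, 20 kept their call and direction under all 19 alternatives in the comparison of OVA with control, 11 in that of OVA plus citraconate with OVA, and 18 in that of OVA plus citraconate with control. Another 0, 6 and 6 were called under none of them, in the same order. Scaling mattered most for OVA plus citraconate against OVA, where the main count of 6 lower members became 15 with the median of ratios, 15 with recovered reads and voom, and 11 with granzymes left out. With OVA relative to control, the main counts of 14 higher and 10 lower became 18 and 9 with the median of ratios. They were also 18 and 9 with recovered reads and voom, and 20 and 8 with granzymes left out. Leaving out 1 library at a time gave 13 to 15 higher and 8 to 10 lower members with OVA relative to control. It gave 5 to 7 higher and 6 to 7 lower with OVA plus citraconate relative to OVA, and 13 to 15 higher and 5 to 7 lower relative to control. Where 2 libraries remain in a group, they are assumed to vary like the others.

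Members that were not called changed sign for OVA plus citraconate against OVA as follows, all as unshifted log2 values. With the median of ratios, Pdhb was -0.053, Pdp2 -0.079, Idh3g -0.10, Ogdh -0.068, Fh1 -0.13 and Me2 -0.081. With recovered reads they were -0.047, -0.086, -0.099, -0.063, -0.13 and -0.077, in that order. With granzymes left out, Pdp2 was -0.025, Idh3g -0.041, Ogdh -0.0063, Fh1 -0.070 and Me2 -0.019, and with quantile normalization Pdp2 was -0.14 and Fh1 -0.074. Leaving out 1 library at a time gave -0.046 to 0.068 for Fh1, -0.036 to 0.027 for Mdh1 and -0.047 to 0.0053 for Idh3a. For Glud1 the same gave -0.0091 to 0.045 for OVA against control, and leaving granzymes out gave 0.0012 for OVA plus citraconate against control. Of the other pathway genes named, Ldha changed sign between the treated groups, to -0.080 with the median of ratios, -0.075 with recovered reads and -0.018 with granzymes left out. For OVA against control, Sdha ranged over -0.0108 to 0.0496 with 1 library left out, below 0 without OVA replicate 3, and Sdhd 0.015 with granzymes left out. For OVA plus citraconate against control, Acss1 ranged over -0.253 to 0.128, above 0 without OVA plus citraconate replicate 2, and Pccb over -0.135 to 0.0851, above 0 without OVA plus citraconate replicate 1. Pccb was 0.00740 with granzymes left out. The cause was not tested. Pdp1 and Idh3b, called between the treated groups, were not called under 9 and 7 alternatives. Depth limits Acod1, with at most 7 reads, and bears on other low members such as Pdk2, with 29 to 75 reads in the OVA libraries.

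With the replicate number as a block, 14 members were higher and 10 lower with OVA relative to control. With OVA plus citraconate, 7 and 6 were higher and lower relative to OVA and 14 and 7 relative to control, where Pdk3 was the member whose call changed (adjusted p = 0.0354). Same-numbered libraries of OVA and OVA plus citraconate had correlations of deviations of 0.048, 0.30 and 0.14 for numbers 1, 2 and 3. Differently numbered libraries of these groups had -0.25 to 0.17, and not every library was closest to its own number. Same-numbered control libraries had -0.012, 0.081 and 0.0028 with OVA, and 0.028, 0.10 and 0.025 with OVA plus citraconate. These values do not decide whether the numbers mark pairs. The labels state no block, and the numbers were not taken as pairs.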

Other observations

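Among the pathway genes outside the naming rule, chosen here after their values were seen, both propionyl-CoA carboxylase subunit genes changed when citraconate was added, in opposite directions. Propionyl-CoA carboxylase feeds succinyl-CoA from odd-chain fatty acids and branched amino acids. Pcca stood at 11.98, 12.7 and 13.7 TPM with OVA plus citraconate, 9.58, 8.06 and 8.18 TPM with OVA, and 8.03, 7.49 and 8.14 TPM in control, with the citraconate libraries above the other 6, and it rose when citraconate was added (relative log2 0.40, SE 0.091, adjusted p = 0.000764). Pccb stood at 14.5, 20.1 and 17.6 TPM with OVA plus citraconate, 25.98, 28.2 and 25.2 TPM with OVA, and 18.2, 17.2 and 17.7 TPM in control and fell when citraconate was added (relative log2 -0.71, SE 0.10, adjusted p = 0.000804). Each call held in all 19 alternatives.

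Of the lactate dehydrogenase subunits, Ldhb, the heart type, stood at 29.6, 25.98 and 31.02 TPM with OVA plus citraconate, 10.8, 5.47 and 12.7 TPM with OVA, and 13.4, 10.3 and 13.3 TPM in control, and the citraconate libraries lay above the other 6. It rose when citraconate was added (relative log2 1.43, SE 0.24, adjusted p = 0.000323) and was above control (log2 1.17, SE 0.24, adjusted p = 0.00174). Ldha, the muscle type, averaged 1556 ± 126 TPM with OVA plus citraconate, 1495 ± 61.6 TPM with OVA and 2397 ± 27.1 TPM in control and was not called between the treated groups (95% interval -0.08 to 0.19), having fallen with OVA (log2 -0.68, SE 0.063, adjusted p = 4.96e-06). Gls2, the liver-type glutaminase, averaged 5.83 ± 0.932 TPM with OVA plus citraconate, 2.81 ± 0.464 TPM with OVA and 10.7 ± 1.20 TPM in control, falling with OVA (log2 -1.62, SE 0.14, adjusted p = 2.80e-06) and rising when citraconate was added (relative log2 0.71, SE 0.14, adjusted p = 0.000513).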
